A study of Mus musculus with 11 samples.

Results

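Acid is sensed by peripheral neurons through channels that protons open and through receptors that protons switch on. The genes described here are 7 such sensors of the mouse, chosen by name from the 55401 genes of each count file: the acid-sensing ion channel genes Asic1, Asic2, Asic3 and Asic4, and the proton-sensing receptor genes Gpr4, Gpr65 and Gpr132. All 7 were found in every file. They were read in bulk RNA of trigeminal ganglion neurons, which carry touch, temperature and pain from the head, that had taken up the retrograde tracer DiI and were sorted by its fluorescence from both ganglia. Mice with a tumour of MOC1 cells, a line from a squamous carcinoma of the mouse mouth, gave 3 female and 3 male libraries. Sham mice gave 3 female libraries and 2 male libraries, numbered 1 and 3. All groups share DiI labelling, dissociation and sorting, and no genetic change is given for either arm. The strain, the age, the tumour's site and duration, and whether each library was 1 animal are not given in the sources used here.

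Acid-sensing ion channels are trimers of the DEG/ENaC family that open to sodium when the fluid outside the cell turns acidic. ASIC1 and ASIC3 subunits form channels that carry most proton-gated current of sensory neurons, ASIC3 staying partly open under mild, lasting acidosis, while ASIC2 mixes with them and alters their proton sensitivity, and ASIC4 gives no proton-gated current on its own. GPR4, GPR65 and GPR132 are G protein coupled receptors. GPR4 is best known from blood vessel endothelium, GPR65 and GPR132 from leukocytes, and GPR132, which also answers to lipids, is the weakest proton sensor among them.

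The 3 channel genes with counts in every library differ in layout, and counts per gene pool the transcripts from every start site of a gene. On GRCm38, Asic1 spans chr15:99670368-99701130 on the plus strand, Asic2 spans chr11:80880169-81968457 on the minus strand, a gene of 1088289 bases, and Asic3 spans chr5:24413392-24417835 on the plus strand, only 4444 bases. RefSeq (GRCm38.p6) gives Asic2 a pair of start sites, so that the Asic2 level below is a sum over both. The 4 promoters, from 250 bases before the start to 50 after it, are shown because they are the RefSeq starts listed for the genes whose levels follow. The Asic1 window lies inside the gene as the files annotate it, downstream of the gene's 5′ end at position 99670368, for which no window is shown. They are written 5′ to 3′ on the gene's strand, with every CG pair, the site of DNA methylation, in capitals.
Asic1, chr15:99691974-99692273, plus strand: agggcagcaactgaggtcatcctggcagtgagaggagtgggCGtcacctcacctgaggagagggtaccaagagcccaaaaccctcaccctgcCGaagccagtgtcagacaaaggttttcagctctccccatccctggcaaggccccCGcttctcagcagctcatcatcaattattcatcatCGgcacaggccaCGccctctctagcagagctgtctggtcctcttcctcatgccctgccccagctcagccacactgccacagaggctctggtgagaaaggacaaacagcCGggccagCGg
Asic2, chr11:81152854-81153153, minus strand: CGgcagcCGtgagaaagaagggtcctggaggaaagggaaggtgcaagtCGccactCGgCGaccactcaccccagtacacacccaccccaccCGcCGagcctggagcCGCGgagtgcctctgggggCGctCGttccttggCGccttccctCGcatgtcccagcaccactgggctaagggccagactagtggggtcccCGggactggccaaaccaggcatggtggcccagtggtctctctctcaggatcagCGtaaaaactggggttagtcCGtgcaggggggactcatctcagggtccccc
Asic2, chr11:81968347-81968646, minus strand: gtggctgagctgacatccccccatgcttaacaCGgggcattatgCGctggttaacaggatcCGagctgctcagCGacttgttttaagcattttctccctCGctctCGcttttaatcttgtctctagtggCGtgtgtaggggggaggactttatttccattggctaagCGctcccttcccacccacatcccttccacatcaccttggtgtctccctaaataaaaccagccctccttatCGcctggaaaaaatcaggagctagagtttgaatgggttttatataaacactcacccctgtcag
Asic3, chr5:24413201-24413500, plus strand: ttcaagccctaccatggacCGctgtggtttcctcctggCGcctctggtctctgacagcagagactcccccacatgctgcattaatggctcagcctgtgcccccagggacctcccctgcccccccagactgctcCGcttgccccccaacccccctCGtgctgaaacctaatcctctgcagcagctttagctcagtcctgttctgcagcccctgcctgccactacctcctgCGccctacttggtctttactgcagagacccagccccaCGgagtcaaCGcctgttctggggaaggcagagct
The CG pairs numbered 7 in the Asic1 window, 16 and 9 in the Asic2 windows and 7 in the Asic3 window, and the median over all 32851 mouse promoters in the table was 7. Of these 4 windows, only the second Asic2 window held TATAA on either strand, a motif found in 24.9% of all promoters of that length. The Gpr4 window held 14 CG pairs, that of Gpr132 held 7, and that of Gpr65 held 3 and the TATAA motif. These are letters in a window and say nothing of which start the neurons used.

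Counts in genes ranged from 10757426 to 15739544 in MOC1 libraries and from 15510643 to 16703797 in sham libraries, and between 14180 and 19078 genes were detected in each. In the comparison of MOC1 with sham libraries, edgeR's quasi-likelihood test with sex as a term called 1113 of 16817 genes at an adjusted p under 0.05, which is 6.62%, with 394 higher (2.34%) and 719 lower (4.28%). None of the 7 sensors was among them. Of the 7, 5 passed the low-count filter (Asic1, Asic2, Asic3, Gpr4 and Gpr65). In this fit 0 of those 5 had an unadjusted p under 0.05, beside 3104 of all 16817 genes, and 5 genes are too few to differ from that share. Without the filter, Asic1 and Asic3 had unadjusted p of 0.0101 and 0.0155, and adjusted p of 0.118 and 0.161 by edgeR. The levels of MOC1 and sham libraries overlapped for all 7 genes. How often they overlap among all genes was not counted, so this does not set the sensors apart. The sorted cells carried the markers of sensory neurons, whose 20 pan-neuronal genes summed to 18270 ± 603 CPM (reads per 1e+06 gene counts) in MOC1 libraries (SD, n = 6) and 15540 ± 1128 in sham libraries (SD, n = 5), without overlap. Satellite glia markers, 16 genes of the cells that wrap these neurons, summed to 5880 ± 1007 CPM in MOC1 libraries and 11737 ± 711 CPM in sham libraries, also without overlap. An exact permutation test over 462 regroupings gave an adjusted p of 0.00606 for both differences, and the smallest unadjusted p it can give is 0.00216. In bulk samples, fewer cells of a type and less RNA per cell cannot be told apart.

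Asic1, the subunit of the most widespread neuronal acid-sensing channel, was the most counted of the sensors. Its level, as CPM after TMM scaling, was 106.2, 80.2 and 140.0 in MOC1 females 1 to 3 and 110.9, 105.0 and 108.2 in MOC1 males 1 to 3, against 78.6, 88.7 and 118.5 in sham females 1 to 3 and 91.5 and 75.8 in sham males 1 and 3. Of the 6 MOC1 libraries, 5 lay above the sham median, but only MOC1 female 3 lay above the highest sham library, and MOC1 female 2 lay below the sham median. The mean was 108 ± 19.1 CPM in MOC1 libraries and 90.6 ± 16.9 CPM in sham libraries (SD, n = 6 and 5). The log2 change was 0.27 ± 0.13 (SE), with a 95% interval from -0.01 to 0.55, and the adjusted p was 0.291 in edgeR's quasi-likelihood test. The interval reaches from a fold of 0.994 to one of 1.46, so a rise of that size was not distinguishable from none with these libraries.

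Asic2, the subunit that tunes the other channels, varied least of the 3 over the sham arm. It had 105.8, 70.0 and 86.9 CPM in MOC1 females 1 to 3 and 114.2, 77.5 and 102.7 CPM in MOC1 males 1 to 3, against 86.8, 77.7 and 75.9 CPM in sham females 1 to 3 and 85.8 and 87.5 CPM in sham males 1 and 3. The MOC1 libraries lay on both sides of the sham range, 3 of them above its highest library and MOC1 female 2 below its lowest. Means were 92.9 ± 17.4 CPM in MOC1 libraries and 82.8 ± 5.49 CPM in sham libraries (SD, n = 6 and 5). The log2 change was 0.15 ± 0.12 (SE), with a 95% interval from -0.10 to 0.40 and an adjusted p of 0.578 by edgeR.

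Asic3, the subunit most characteristic of sensory neurons, had 78.2, 69.8 and 95.5 CPM in MOC1 females 1 to 3 and 44.3, 79.9 and 87.1 CPM in MOC1 males 1 to 3, against 37.5, 73.3 and 69.9 CPM in sham females 1 to 3 and 65.3 and 64.4 CPM in sham males 1 and 3. One library of each arm stood low, MOC1 male 1 and sham female 1, and 4 of the 6 MOC1 libraries lay above the highest sham library. Means were 75.8 ± 17.7 CPM in MOC1 libraries and 62.1 ± 14.2 CPM in sham libraries (SD, n = 6 and 5). The log2 change was 0.29 ± 0.18 (SE), with a 95% interval from -0.09 to 0.67 and an adjusted p of 0.441 by edgeR, and it was 0.15 without sham female 1.

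**Figure D1:**
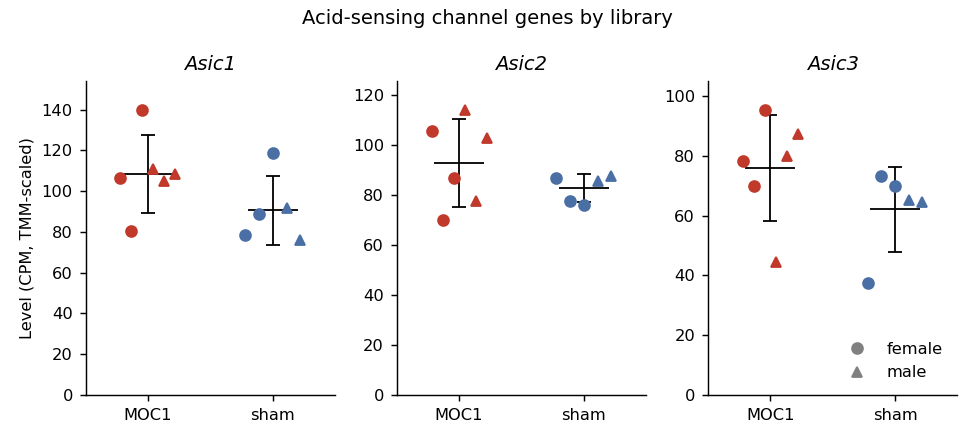
Level of Asic1, Asic2 and Asic3 in each library (vertical axis, CPM after TMM scaling, from 0), with MOC1 left of sham, circles for females, triangles for males, and bars for the mean ± SD of 6 MOC1 and 5 sham libraries. Means are higher in MOC1 libraries (108 against 90.6 CPM for Asic1), yet the arms overlap in all 3 panels and none of the differences was called.

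The fourth channel gene, Asic4, was hardly counted. Its reads numbered 9 in MOC1 female 1, 1 in MOC1 male 1 and 0 in the other 4 MOC1 libraries, against 6 in sham female 3 and 0 in the other 4 sham libraries. A count of 0 allows up to 3 reads, which in the libraries concerned is at most 0.216 CPM, counting error only. Asic4 did not pass the low-count filter, and a fit without that filter gave an adjusted p of 0.791 where 6.41% of 24535 genes were called. Its gene (chr1:75450436-75474343, plus strand) shares 493 exon bases with the antisense gene Gm37264, which the strand-specific counting keeps apart.

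The receptors were sparse. Gpr4, which raises cyclic AMP through Gs (chr7:19212538-19224174, plus strand), had 6, 38 and 40 reads in MOC1 females 1 to 3 and 11, 0 and 34 in MOC1 males 1 to 3, against 128, 10 and 11 in sham females 1 to 3 and 15 and 8 in sham males 1 and 3. Sham female 1 alone held 7.84 CPM, while the other 4 sham libraries held 0.476 to 0.954 CPM and the MOC1 libraries 0 to 2.94 CPM. The log2 change was -0.16 ± 1.08 (SE; 95% interval from -2.42 to 2.10; adjusted p = 0.968 by edgeR), and it turned to 1.03 without sham female 1, with an adjusted p of 0.819. Sham female 1 was also the library with the most endothelial signal. The 12 endothelial markers summed to 1598 CPM there, against 130 to 274 CPM in the other sham libraries, and to 128 to 228 CPM in MOC1 libraries. Within the MOC1 arm, Gpr4 levels of 0.557, 2.53 and 2.94 CPM in females 1 to 3 stood beside endothelial sums of 189, 155 and 153 CPM. In males 1 to 3, levels of 0.708, 0 and 2.17 CPM stood beside sums of 128, 131 and 228 CPM. No endothelial marker was at 0 in every library, and the part of these cells in the Gpr4 counts was not tested.

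Gpr65, a proton receptor of lymphocytes and macrophages that also couples to Gs (chr12:98268635-98276644, plus strand), had 0, 20 and 0 reads in MOC1 females 1 to 3 and 32, 0 and 6 in MOC1 males 1 to 3, against 12, 15 and 11 in sham females 1 to 3 and 4 and 0 in sham males 1 and 3. The MOC1 arm held both the highest libraries and 3 of the 4 at 0, where up to 3 reads, or 0.200 to 0.279 CPM in those MOC1 libraries, are allowed. Means were 0.629 ± 0.870 CPM in MOC1 libraries and 0.508 ± 0.371 CPM in sham libraries (SD, n = 6 and 5), and the log2 change of 0.56 ± 1.93 (SE) had an adjusted p of 0.929 by edgeR. Gpr65 shares 511 exon bases with its antisense neighbour Gm47566. Gpr132 (chr12:112850873-112868228, minus strand) had 7 reads in sham female 1 and 0 in every other library, MOC1 and sham, and its adjusted p without the low-count filter was 0.539.

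Leukocyte markers were counted in the same libraries. The 13 macrophage markers summed to 10.1 to 40.3 CPM in MOC1 libraries and 18.1 to 68.4 CPM in sham libraries, with the highest sum in sham female 1. Among them Csf1r, C1qa, C1qb, C1qc, Mrc1 and Lyz2 had reads in every library. Aif1 and Fcer1g were each at 0 in 6 of the 11 libraries, and Tyrobp in 9. The 13 T, NK and B cell markers summed to 0 to 2.66 CPM in MOC1 libraries and 0.778 to 3.74 CPM in sham libraries, and 6 of the 13, among them Cd3e and Cd8a, were at 0 in all libraries. Trac was at 0 in only 3 libraries and reached 2.66 CPM, and Cd79a was at 0 in 7 and reached 1.57 CPM. The part of leukocytes in the Gpr65 and Gpr132 counts was not tested. The 8 markers shared by leukocytes summed to 101 ± 6.98 CPM in MOC1 libraries and 83.9 ± 2.12 CPM in sham libraries (exact permutation test, adjusted p = 0.00606), but Coro1a alone held 94.96 CPM of the MOC1 and 75.11 CPM of the sham sum. The 8 neutrophil and mast cell markers summed to 183 ± 31.9 CPM in MOC1 libraries and 230 ± 32.0 CPM in sham libraries (exact permutation test, adjusted p = 0.0640), of which Kit alone held 179 CPM of the MOC1 and 216 CPM of the sham sum, while Ly6g and Mcpt4 were at 0 in all libraries.

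**Figure D2:**
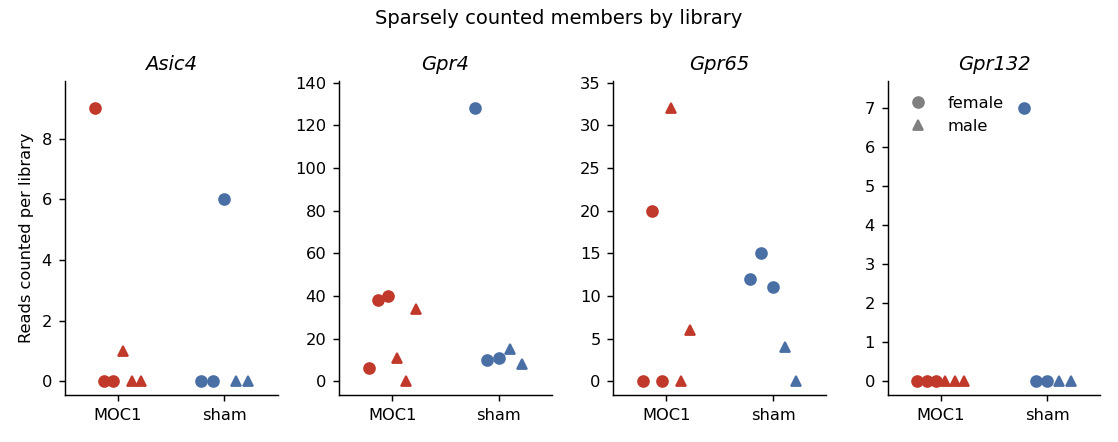
Reads counted per library for Asic4, Gpr4, Gpr65 and Gpr132 (vertical axes, raw counts, each panel with its own scale), with MOC1 left of sham, circles for females and triangles for males. Most points lie at or near 0, and the 128 Gpr4 reads and the 7 Gpr132 reads are both from sham female 1.

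To order the genes by level, CPM was divided by exon length in kilobases. In MOC1 libraries Asic3 came first at 31.3 ± 7.30 CPM per kb, then Asic2 at 21.8 ± 4.09 and Asic1 at 18.9 ± 3.32 CPM per kb (SD, n = 6). In sham libraries the order was the same, with Asic3 at 25.6 ± 5.87, Asic2 at 19.4 ± 1.29 and Asic1 at 15.8 ± 2.95 CPM per kb (SD, n = 5). The ranges of neighbours in this order overlapped. Asic3 exceeded Asic2 in 5 of 6 MOC1 and 4 of 5 sham libraries, and Asic2 exceeded Asic1 in 4 of 6 MOC1 and 4 of 5 sham libraries. A wide gap followed, with no overlap: Gpr4 came next at 0.515 ± 0.421 CPM per kb in MOC1 libraries and 0.730 ± 1.11 CPM per kb in sham libraries. Gpr65 averaged 0.304 and 0.246 CPM per kb in MOC1 and sham libraries, Asic4 0.0550 and 0.0260, and Gpr132 0 and 0.0316, each of them within the spread of its neighbours. Among all genes tested, mean CPM placed Asic1 at the 86.2nd percentile, Asic2 at the 84.2nd, Asic3 at the 79.9th, Gpr4 at the 22.5th and Gpr65 at the 11.0th.

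The mix of channel subunits was similar in the arms. Asic3 made up 43.2 ± 7.58% of the 4 channel genes' length-corrected level in MOC1 libraries and 41.6 ± 6.10% in sham libraries (SD, n = 6 and 5). Asic2 made up 30.5 ± 6.23% in MOC1 and 32.4 ± 5.70% in sham libraries, and Asic1 26.2 ± 2.74% in MOC1 and 25.9 ± 3.34% in sham libraries. Single libraries departed further than the arms did. In MOC1 male 1 the Asic3 share was 28.4% and the Asic2 share 41.6%, and in sham female 1 they were 31.2% and 41.1%. In the other 9 libraries Asic3 was the largest share.

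**Figure D3:**
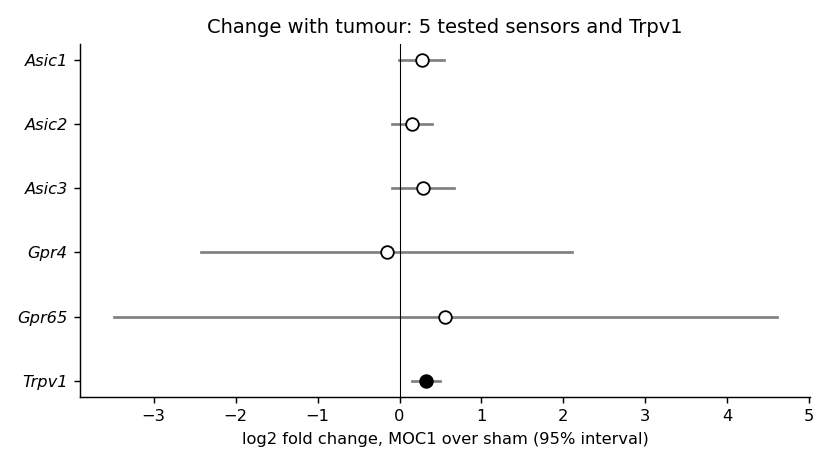
Log2 fold change of MOC1 over sham (horizontal axis) with its 95% interval for the 5 sensors that passed the low-count filter and for Trpv1, filled where called at an adjusted p under 0.05. The intervals of Asic1, Asic2 and Asic3 are narrow and include 0, those of Gpr4 and Gpr65 span several log2 units, and only Trpv1 is filled.

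Trpv1, the capsaicin and heat channel that protons also open, gave the one called change among proton-gated channels. It had 199.3, 229.0 and 192.8 CPM in MOC1 females 1 to 3 and 268.5, 276.3 and 308.9 CPM in MOC1 males 1 to 3, against 189.0, 175.8 and 175.6 CPM in sham females 1 to 3 and 216.3 and 192.5 CPM in sham males 1 and 3. Within each sex the MOC1 libraries lay above the sham libraries, while across sexes the arms overlapped. Its log2 change of 0.32 ± 0.08 (SE; adjusted p = 0.0195 by edgeR) lies inside the 95% intervals of Asic1, Asic2 and Asic3, and its SE was smaller than theirs. The call was lost without MOC1 female 2 (adjusted p = 0.0616), sham male 1 (0.0581) or sham male 3 (0.102). Markers of neuron classes differed alongside. The 6 peptidergic nociceptor markers, Trpv1 among them, summed to 2672 ± 319 CPM in MOC1 libraries and 2201 ± 122 CPM in sham libraries, without overlap (exact permutation test, adjusted p = 0.0101). Calca alone held 1231 CPM of the MOC1 and 1027 CPM of the sham sum, and Calcb was lower in MOC1 libraries (92.7 against 101 CPM). The 7 nonpeptidergic nociceptor markers summed to 2804 ± 252 CPM in MOC1 libraries and 2499 ± 138 CPM in sham libraries, with overlap (exact permutation test, adjusted p = 0.0606). The 7 markers of myelinated neurons summed to 541 ± 79.8 CPM in MOC1 libraries and 716 ± 87.9 CPM in sham libraries (exact permutation test, adjusted p = 0.0260). Ntrk2 alone held 292 CPM of the MOC1 and 509 CPM of the sham sum. Whrn was also lower on average in MOC1 libraries, while Ntrk3 (201 against 171 CPM), Calb1 (20.8 against 11.3 CPM), Pvalb, Spp1 and Runx3 were higher. The sum therefore does not show a fall across the myelinated markers. The part of these neuron classes in the Trpv1 change was not tested.

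Within each sex no sensor was called either, where edgeR called 4.48% of genes in females and 1.25% in males. For Asic1 the log2 change was 0.19 ± 0.18 (SE) in females and 0.37 ± 0.20 in males. For Asic2 it was 0.13 ± 0.16 in females and 0.18 ± 0.18 in males. For Asic3 it was 0.43 ± 0.24 in females and 0.12 ± 0.27 in males. The sex difference in response was 0.18 ± 0.27 for Asic1, 0.05 ± 0.24 for Asic2 and -0.31 ± 0.36 for Asic3 (male minus female, log2), each with an adjusted p of 1.00 by edgeR. That interaction gave 0% calls among all 16817 genes by edgeR, with 708 at an unadjusted p under 0.05, and 0 calls by DESeq2 and by voom with quality weights. Single libraries turned the sign within a sex. The female Asic1 change was -0.03 without MOC1 female 3, the female Asic2 change -0.03 without MOC1 female 1, and the male Asic3 change -0.06 without MOC1 male 3.

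How the channel genes stood between the arms depended on what the libraries were scaled to. Scaled to the pan-neuronal markers, the log2 change was 0.02 for Asic1, -0.11 for Asic2 and 0.04 for Asic3, against a median of -0.28 over all genes, and 11.5% of genes were called, 30 of them higher and 1897 lower. Trpv1 then changed by 0.06 and was no longer called (adjusted p = 0.774). Scaled to the satellite glia markers, the log2 change was 1.30 for Asic1, 1.15 for Asic2 and 1.33 for Asic3, all called (adjusted p = 1.66e-06, 1.52e-06 and 4.96e-06 by edgeR), but the median over all genes was then 0.98 and 58.2% of genes were called, 9707 higher and 78 lower. Relative to that median, the changes were of the size seen with TMM, under which the median over all genes was -0.03. A change of scaling shifts the log2 change of all genes by nearly the same amount. The channel genes lay above the median of all genes under TMM, and so under the other scalings too, which are not separate support.

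**Figure D4:**
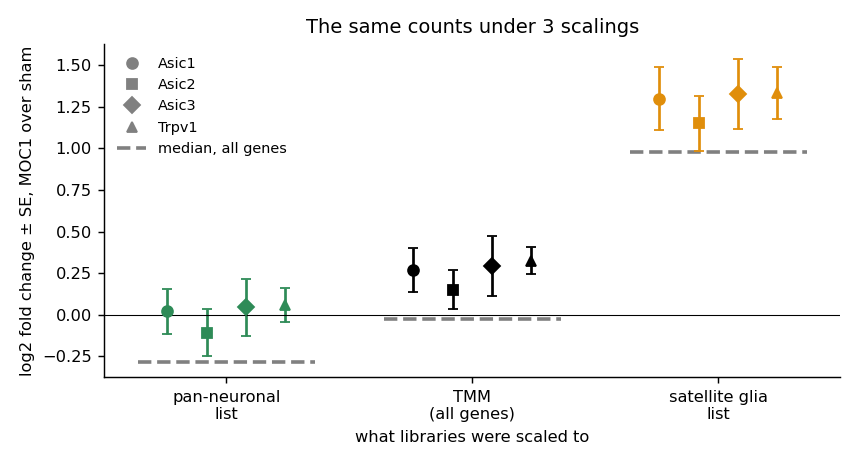
Log2 fold change ± SE of Asic1, Asic2, Asic3 and Trpv1 (vertical axis, MOC1 over sham) with libraries scaled to the pan-neuronal list, by TMM or to the satellite glia list, and the median over all genes as a dashed line. A change of scaling shifts all genes by nearly the same amount, so the 4 genes move with the dashed line. They go from near 0 (0.02 for Asic1) under pan-neuronal scaling to above 1 (1.30 for Asic1) under glial scaling.

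Around the sensors, 7 lists of 82 genes in all covered relatives, binding partners, effectors and the enzymes and carriers that set the pH near a cell. Of the 66 that passed the low-count filter, 8 were called, 3 higher and 5 lower, or 12.1%, beside 6.62% of all genes. The lists were chosen with earlier results of these data known, and Trpv1 is among the 8. The difference in share is therefore no test of these lists. The counts per list below stand beside 2.34% of all genes called higher and 4.28% called lower. The DEG/ENaC relatives of the channels were nearly silent: Asic5 and Scnn1b had no read in any library, and of 4 genes only Scnn1a could be tested, with 0.475 ± 0.557 CPM in MOC1 libraries and 0.771 ± 0.614 CPM in sham libraries. Of the 14 proton-gated or proton-inhibited channels, 10 were tested, and besides Trpv1 none was called. The 3 acid-inhibited or acid-sensitive potassium channels of highest level, Kcnk2, Kcnk1 and Kcnk3, had log2 changes of -0.01, 0.08 and 0.06, with adjusted p from 0.918 to 0.988 by edgeR. The median log2 change of the 10 was 0.09, against -0.03 for all genes.

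Among 10 tested genes whose proteins bind acid-sensing channels, 1 fell. Slc9a3r1, which encodes the scaffold protein NHERF1, had 59.8 ± 17.2 CPM in MOC1 libraries and 120 ± 18.7 CPM in sham libraries (SD, n = 6 and 5), without overlap, a log2 change of -1.03 ± 0.17 (SE; adjusted p = 5.89e-04 by edgeR). Satellite glia markers fell alongside. With libraries scaled to them the Slc9a3r1 change was -0.07 (adjusted p = 0.742 by edgeR), where the median over all genes was 0.98, so it still lay below most genes. That scaling shifts all genes and is no test of these cells, whose part in the change was not tested. S100a10, an annexin partner that carries channels to the membrane, had a log2 change of 0.31 ± 0.09 with an adjusted p of 0.0629 by edgeR. S100a10 was called by DESeq2 (adjusted p = 0.0231), without the low-count filter (0.00760), and without MOC1 male 1 (0.0436), sham female 3 (0.0310) or sham male 1 (0.0361). Under pan-neuronal scaling its change was 0.05, where the median over all genes was -0.28. Prkca, a protein kinase C gene, and Magi1, a scaffold gene, had 0.24 and 0.04, and neither was called, though Prkca was without the low-count filter (adjusted p = 0.0208).

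Of the 14 genes for G proteins and adenylyl cyclases through which proton receptors act, all 14 were tested and 1 rose. Gnaq, the alpha subunit of Gq, had 772 ± 89.3 CPM in MOC1 libraries and 607 ± 50.7 CPM in sham libraries (SD, n = 6 and 5), without overlap, a log2 change of 0.34 ± 0.08 (SE; adjusted p = 0.0123 by edgeR). Scaled to pan-neuronal markers the Gnaq change was 0.08 and was not called, where the median over all genes was -0.28. Gnas, the alpha subunit of Gs through which Gpr4 and Gpr65 act, had 1746 ± 87.1 CPM in MOC1 libraries and 1632 ± 82.0 CPM in sham libraries, a log2 change of 0.10 ± 0.06 with an adjusted p of 0.402. Gna13 and Gna12 had 0.13 and -0.20, and neither was called. Gna12 was called lower under pan-neuronal scaling (-0.46, adjusted p = 0.00445) and higher under satellite glia scaling (0.82, adjusted p = 5.10e-05). The medians over all genes were -0.28 and 0.98 under these scalings.

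Carbonic anhydrases, which turn carbon dioxide and water into bicarbonate and protons, had 2 of 12 tested genes lower and none higher. Over all genes 4.28% were called lower, and the list was not tested against that share. Car5b, a mitochondrial form, had 13.4 ± 1.30 CPM in MOC1 libraries and 25.0 ± 9.82 CPM in sham libraries (log2 change -0.81 ± 0.22 SE; adjusted p = 0.0308 by edgeR). Car13, a cytosolic form, had 16.4 ± 10.2 CPM in MOC1 libraries and 33.7 ± 7.21 CPM in sham libraries (log2 change -1.16 ± 0.33 SE; adjusted p = 0.0407 by edgeR). The arms overlapped for both. Leaving out 1 library ended the Car5b call in 6 of 11 cases (adjusted p up to 0.1001) and the Car13 call in 7 of 11 (adjusted p up to 0.126). With libraries scaled to satellite glia markers, the changes were 0.21 for Car5b (adjusted p = 0.513) and -0.25 for Car13 (0.491), where the median over all genes was 0.98. Without the sex term the Car13 change was -1.04 (adjusted p = 0.0669 by edgeR). Car10 and Car11, which lack enzyme activity and were the most counted of the list, had 0.22 and 0.11 and were not called. The median of the 12 was -0.52, against -0.03 for all genes, a difference that was not tested.

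Of 17 tested acid extruders and carriers of bicarbonate or lactate, 1 rose and 2 fell. Slc4a4, a sodium bicarbonate cotransporter, had 192 ± 25.3 CPM in MOC1 libraries and 332 ± 42.7 CPM in sham libraries, a log2 change of -0.78 ± 0.10 (SE; adjusted p = 5.47e-05 by edgeR). Slc16a1, which encodes the lactate and proton carrier MCT1, had 52.4 ± 9.04 CPM in MOC1 libraries and 83.9 ± 8.09 CPM in sham libraries, a log2 change of -0.69 ± 0.13 (SE; adjusted p = 0.00213 by edgeR). The arms did not overlap for either gene. With libraries scaled to satellite glia markers, the changes were 0.21 for Slc4a4 and 0.30 for Slc16a1, and neither was called. The median over all genes was then 0.98, so both still lay below it. Slc9a9, an endosomal sodium and proton exchanger, had 356 ± 28.6 CPM in MOC1 libraries and 291 ± 20.9 CPM in sham libraries, with overlap, a log2 change of 0.30 ± 0.07 (SE; adjusted p = 0.0130 by edgeR). Under pan-neuronal scaling Slc9a9 changed by 0.05, where the median over all genes was -0.28. The peptide genes whose products modulate channel currents were scarce: Npvf had no read, and Penk and Pdyn averaged 0.888 and 0.221 CPM in MOC1 libraries and 0.545 and 0.132 CPM in sham libraries.

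**Figure D5:**
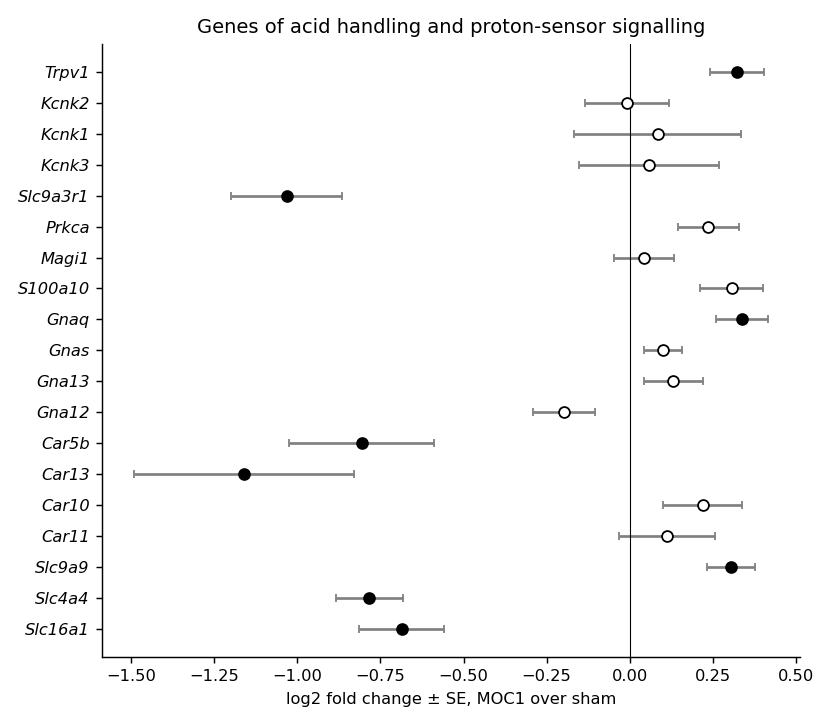
Log2 fold change ± SE of MOC1 over sham (horizontal axis) for named genes of the surrounding lists, filled where called at an adjusted p under 0.05. Slc9a3r1, Car13, Car5b, Slc4a4 and Slc16a1 lie left of 0, from -1.16 for Car13 to -0.69 for Slc16a1, and the filled genes right of 0, Trpv1, Gnaq and Slc9a9, lie between 0.30 and 0.34.

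Each of the counted channel genes varied over the 11 libraries most like a different set of genes. Among 10996 candidates with a mean of at least 5 CPM, log2 CPM of Asic1 was most like that of Pde8b (Pearson r = 0.94, Spearman rho = 0.88), Hgsnat (0.93 and 0.84) and Gga3 (0.91 and 0.89). For Asic2 they were Eif4e3 (0.88 and 0.77), Slc25a27 (0.86 and 0.79) and Hsdl1 (0.85 and 0.69). For Asic3 they included Htr1b (0.93 and 0.86) and Frrs1l (0.90 and 0.58). These are the highest of many correlations over libraries that differ in depth, glial content and condition, and they carry no test.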

How the data were processed

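The authors deposited raw counts of reads per gene for each of the 11 libraries, split by strand and without normalization, per the file headers. Per the labels' protocols, RNA was poly(A)-selected (KAPA RNA HyperPrep) and read from a single end; Trimmomatic 0.35, STAR 2.7.1a, RSEM and GRCm38 (mm10) are named in the submitters' processing notes. Which annotation release was counted is not given here. In each file 4 totals that name no gene held 18.7% to 21.5% of counts and were left out. Exon lengths come from GENCODE M21, which matched 54349 of 55401 identifiers.

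Counts were fitted in R 4.3.3 with edgeR 4.0.16: filterByExpr by condition and sex (16817 genes), TMM, a quasi-likelihood F test with sex as a term, Benjamini-Hochberg adjustment over all genes and a threshold of 0.05. A 4-group fit gave the comparisons within sex and the interaction. SE is the absolute log2 change divided by the root of F. Marker sums were compared by two-sided exact permutation of log2(CPM + 1), adjusted over 14 lists. On simulated counts of 15882 genes, the MOC1 against sham fit recovered 21.0% of 1.5-fold, 58.7% of 2-fold and 61.0% of 4-fold changes, with 4 false calls. Replicates within a group differed by more than sampling noise. The labels do not say that libraries are separate animals, so p-values measure only the spread between these samples.

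The genes, lists and alternatives were chosen with earlier results of these data known. Named are all 7 sensors, Trpv1, the called genes of each list plus its most counted members up to 4, and the 3 genes most like each sensor of at least 5 CPM; a few that this takes are left out of the text. Alternatives were DESeq2 1.42.0, its size factors in edgeR, total-count, pan-neuronal and satellite glia scaling, no filter, 1 CPM in 5 libraries, voom with quality weights (limma 3.58.1), no sex term, the replicate block, each library left out, and sham female 1, MOC1 female 3 and MOC1 male 2 left out together.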

Additional observations from a re-analysis of the deposited data

Results flagged for a closer look

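For each sensor and Trpv1 the libraries of each arm were checked for 1 standing far from the rest, and 5 of 15 checks did so. Chance gives about 1 in 20 for values that spread normally, a rate that does not hold for Asic4 and Gpr132, where nearly every other library had 0 reads. Sham female 1 accounts for 3 of them: the lowest Asic3 level of the sham arm (37.5 CPM, next 64.4 CPM), the highest Gpr4 level (7.84 CPM, next 0.954 CPM) and the sole Gpr132 reads (0.429 CPM). The others are Asic4 levels of 0.835 CPM in MOC1 female 1 and 0.354 CPM in sham female 3, which rest on 9 and 6 reads.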

How the results depend on the processing

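Satellite glia scaling called Asic1, Asic2 and Asic3; no other alternative run called a sensor. Gpr132 could be fitted only without the filter, Asic4 only so or without 1 of the sham males, and Gpr4 and Gpr65 not under 1 CPM in 5 libraries. Against 1113 genes called, pan-neuronal scaling gave 1927 and glia scaling 9785; leave-one-out gave 816 to 1129. In females (753), DESeq2 gave 1271, pan-neuronal scaling 1818, glia scaling 8321 and no filter 1316, with 345 to 876 on leaving out a library. In males (211), DESeq2 gave 375, glia scaling 7320, no filter 469, voom 545 and leaving out the 3 libraries 490, with 62 to 340 on leaving out 1. For the interaction (0), glia scaling gave 2, no filter 53 and leaving out the 3 libraries 5, with 0 to 2 on leaving out 1. Libraries of the same sex and replicate number had correlations of deviations of -0.038 to 0.018 over 5 pairs. With so few libraries per group this cannot exclude pairing. The replicate block called 1090 genes, 782 in females and 252 in males. Signs turned, in log2, under pan-neuronal scaling for Asic1 in females (-0.128), Asic2 (-0.108; females -0.21), Asic3 in males (-0.047), Kcnk1 (-0.173), Kcnk3 (-0.222), Prkca (-0.024), Magi1 (-0.214), Gnas (-0.156), Gna13 (-0.132), Car10 (-0.038) and Car11 (-0.148); under glia scaling for Gpr4 (0.91), Scnn1a (0.021), Kcnk2 (1.01), Gna12 (0.82), Car5b (0.21), Slc4a4 (0.21) and Slc16a1 (0.30); without the 3 libraries for Asic1 in females (-0.153) and Gpr4 (1.15); by voom for Asic3 in males (-0.025), Gpr65 (-0.025) and Penk (-1.44); and under the block for Asic3 in males (-0.013), Gpr4 (0.51), Kcnk2 (0.016), Kcnk1 (-0.017) and Penk (-2.46). Leaving out 1 library gave log2 ranges across 0 for Asic1 in females (-0.034 to 0.38) and in the interaction (-0.010 to 0.40), Asic2 in females (-0.032 to 0.26) and in the interaction (-0.086 to 0.21), Asic3 in males (-0.062 to 0.36), Gpr4 (-0.74 to 1.03), Gpr65 (-1.01 to 1.16), Kcnk2 (-0.065 to 0.080), Kcnk1 (-0.085 to 0.23), Kcnk3 (-0.045 to 0.28), Magi1 (-0.0072 to 0.10), Penk (-0.15 to 1.41) and the macrophage markers (-0.45 to 0.016). It brought 2 other marker sums under the threshold in some cases, with ranges of 0.13 to 0.19 for nonpeptidergic nociceptors and -0.39 to -0.24 for neutrophils and mast cells. The cause was not tested.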
